A study of Arabidopsis thaliana with 6 samples.

Results

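The LNK genes, LNK1 (AT5G64170), LNK2 (AT3G54500), LNK3 (AT3G12320) and LNK4 (AT5G06980), are a family of 4 Arabidopsis thaliana genes whose name stands for NIGHT LIGHT-INDUCIBLE AND CLOCK-REGULATED. They were taken from the count tables by these gene identifiers, for which RefSeq holds the LNK names as synonyms, and they are 4 of 36917 genes in the tables; all 4 had enough counts to be tested. Their RNA was measured by RNA-seq in Col-0 wild-type plants (replicates 2, 3 and 4) and in fbn6-1 plants (replicates 1, 2 and 3); this mutant carries the GK_159E10 allele of FBN6 and has the Col-0 ecotype as well. FBN6 encodes a fibrillin, a lipid-associated protein of plastids. Each group holds 3 libraries from plants aged 3 weeks, kept in soil in a greenhouse at 16 h light and 8 h dark, with a fluence near 120 µmol m-2 s-1; no stress treatment is named for them. The mutant is a single allele, the labels do not say whether a library came from 1 plant or a pool, and they give no hour of harvest, so the place of these levels in the daily cycle is not known. Nor do they say whether wild type and mutant were harvested at the same hour. The part of a difference in hour in the group differences below was not tested.

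LNK proteins are transcriptional coactivators that have no DNA-binding domain of their own. They are recruited to promoters by MYB-like factors of the REVEILLE group, above all RVE8, and with them promote the expression of clock genes such as PRR5 and TOC1, which peak later in the day. LNK transcripts are induced by light and peak in the morning, and the proteins thereby link light signals to the clock, to growth and to flowering time. LNK1 and LNK2 are longer proteins than LNK3 and LNK4. In the RefSeq annotation of TAIR10.1 the longest coding sequences correspond to 616 residues for LNK1, 680 for LNK2, 269 for LNK3 and 279 for LNK4.

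The genes lie at chr5:25672466-25676823 on the minus strand (LNK1), chr3:20175370-20179070 on the minus strand (LNK2), chr3:3923515-3925502 on the plus strand (LNK3) and chr5:2167120-2169437 on the plus strand (LNK4), in TAIR10.1 coordinates. The 250 bases before the annotated start of LNK3 and LNK4, the members that fell in the mutant, are shown 5′ to 3′ from RefSeq TAIR10.1, chr3:3923265-3923514 and chr5:2166870-2167119, both on the plus strand. Capitals mark the G-box CACGTG, a palindrome bound by light-signalling bZIP and bHLH factors.
LNK3: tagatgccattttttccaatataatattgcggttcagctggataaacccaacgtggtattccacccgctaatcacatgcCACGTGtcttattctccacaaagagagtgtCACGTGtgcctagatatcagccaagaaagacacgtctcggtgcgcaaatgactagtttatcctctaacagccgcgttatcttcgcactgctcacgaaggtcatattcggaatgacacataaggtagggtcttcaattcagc
LNK4: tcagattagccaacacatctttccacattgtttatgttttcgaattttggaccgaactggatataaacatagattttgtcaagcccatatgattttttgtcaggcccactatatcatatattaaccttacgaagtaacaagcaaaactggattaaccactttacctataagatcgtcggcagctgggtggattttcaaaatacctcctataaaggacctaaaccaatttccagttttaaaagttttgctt
The LNK3 window holds the G-box at 2 places, with its first base 171 and 141 bases before the gene start, while the windows of LNK1, LNK2 and LNK4 hold none. A G-box was found in 6.49% of the 27443 such windows of protein-coding genes. The evening element AAAATATCT and the CCA1-binding site AAAAATCT, searched on both strands, were found in none of the 4 windows, against 2.36% and 6.69% of all windows. Some transcript models of LNK3 and LNK4 start further downstream, so other windows could be drawn, and a match of letters does not show binding.

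Library totals lay between 8668956 and 12287197 counts, of which 3257770 to 4955128 fell on nuclear genes, and the LNK genes together held 3455 to 5596 counts in a library. The mutated gene FBN6 had 1557 to 2201 counts per wild-type library and 3 to 7 per mutant library. The 4 leaf markers RBCS1A, RCA, LHCB1.3 and LHCB2.1 summed to between 20822 and 21652 CPM (TMM-scaled CPM, the unit used below for levels) in wild type and between 17793 and 18807 in the mutant. The 4 root markers summed to at most 0.240 CPM in wild type and to between 0.909 and 1.28 in the mutant, with EXPA7 at 0 in every library, and the 4 flower markers to between 1.05 and 1.36 CPM and between 0.751 and 0.909, with AP3 at 0 in every library. Most of the root sum was PYK10, at means of 0.109 CPM in wild type and 0.907 in the mutant, while COBL9 and CASP2 had at most 2 counts in a library. The lower flower sum came from SEP3 (means of 0.521 and 0.0710 CPM), while AG (0.511 and 0.590) and PI (0.133 and 0.176) had higher means in the mutant. The part of these marker differences in the LNK results was not tested. Wild-type replicate 3 stood apart from the other wild-type libraries. Pairs were compared by the chi-square per degree of freedom over genes with at least 40 counts in the pair. This value is 1 where only counting noise separates a pair. For wild-type replicate 3 it was 16.0 and 14.8 against wild-type replicates 2 and 4. It was 4.98 between wild-type replicates 2 and 4 and 5.20 to 6.12 among the mutant libraries. Against mutant replicates 1, 2 and 3, wild-type replicate 3 had 23.7, 11.6 and 16.2, so it lay closest to mutant replicate 2. Wild-type replicates 2 and 4 each lay closer to every mutant library than to wild-type replicate 3. The spread within wild type was thus as large as much of the separation between the groups.

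LNK3 and LNK4 transcripts fell in fbn6-1, by about 1.42-fold and 1.48-fold, while LNK1 and LNK2 did not pass the test. Of the 4 tested members, 2 were lower and 0 higher at an adjusted p under 0.05, beside 2.34% of all tested genes called lower and 1.48% called higher. The same 2 lower calls were made by DESeq2 and by limma-voom, and 0 members had an unadjusted p under 0.05 in the higher direction. The mutant values lay below all wild-type values in 3 of the 4 members, LNK2, LNK3 and LNK4, which was so for 12.1% of all tested genes. The members were chosen with earlier results of these data known, so these shares are a background and not a test of the family. In bulk tissue, fewer cells that express a gene and less RNA of it per cell cannot be told apart.

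LNK1 stood at 62.0, 54.1 and 71.3 CPM in replicates 2, 3 and 4 of wild type, and replicates 1, 2 and 3 of the mutant had 68.1, 61.8 and 65.1 CPM. The mutant values lay inside the wild-type range, whose ends were replicates 3 and 4. The means were 62.5 ± 8.58 and 65.0 ± 3.12 CPM (SD, n = 3 each), and the log2 fold change was 0.06 with an SE of 0.11 (adjusted p = 0.857 by edgeR's quasi-likelihood test) and had a 95% interval from -0.19 to 0.30. Its sign followed 1 library, for without wild-type replicate 3 it was -0.037.

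LNK2, the most abundant member, stood at 269, 240 and 273 CPM in wild type, while the mutant libraries had 235, 220 and 225 CPM. The groups did not overlap, but wild-type replicate 3 and mutant replicate 1 lay close to each other. The mean was 261 ± 17.7 CPM in wild type and 227 ± 7.67 in the mutant (SD, n = 3 each). At a log2 fold change of -0.20 with an SE of 0.095, LNK2 was not called (edgeR adjusted p = 0.295), and the 95% interval ran from -0.40 to 0.0050. The estimate for LNK3, -0.50, lay outside this interval, but the LNK3 interval, from -0.73 to -0.28, overlapped it.

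LNK3, a short member, had 72.8, 81.6 and 82.8 CPM in wild type, against 56.9, 50.1 and 60.2 CPM in the mutant, in the same order of replicates. Every mutant library lay below every wild-type library. LNK3 fell from 79.1 ± 5.44 to 55.8 ± 5.13 CPM (SD, n = 3 each), a log2 fold change of -0.50 with an SE of 0.11 (edgeR adjusted p = 0.0170) and a 95% interval from -0.73 to -0.28. The call was lost in 5 of 14 alternatives: with library-size scaling (-0.37, adjusted p = 0.0923), without wild-type replicate 4 (adjusted p = 0.0706), without mutant replicate 1 (0.0715) or 2 (0.106), and with the replicate number as a block. Over all 14 the value stayed between -0.56 and -0.37.

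LNK4, the closest relative of LNK3, had 70.5, 61.2 and 65.2 CPM in wild type, against 47.4, 43.8 and 41.8 CPM in the mutant. The gap between the groups was wider than the range within either group. LNK4 fell from 65.7 ± 4.67 to 44.3 ± 2.82 CPM (SD, n = 3 each), a log2 fold change of -0.57 with an SE of 0.10 (edgeR adjusted p = 0.00716) and a 95% interval from -0.79 to -0.34. Of 16584 tested genes, 194 had a smaller p than LNK4 and 307 a smaller p than LNK3. As the members were chosen with earlier results of these data known, these ranks are a description and not a test. The LNK4 call was lost in 2 of 14 alternatives, without mutant replicate 2 (adjusted p = 0.0503) and with the replicate number as a block.

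**Figure D1:**
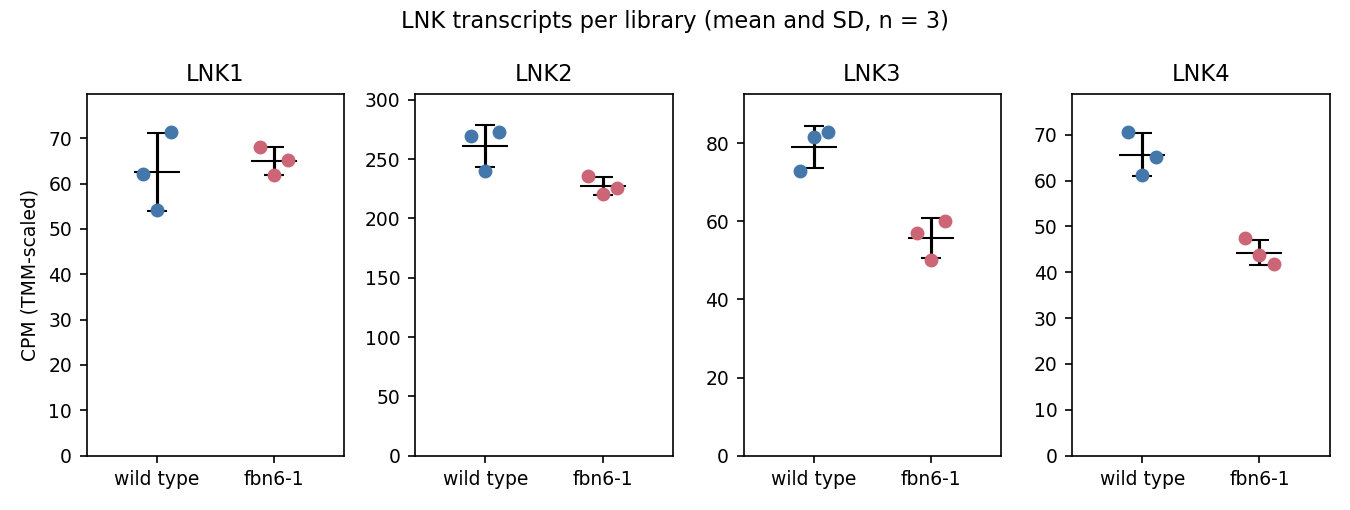
TMM-scaled CPM of LNK1 to LNK4 in each library of wild type (blue) and fbn6-1 (red), with the mean and SD of 3 libraries; each panel has its own axis from 0. The mutant points lie below all wild-type points for LNK2, LNK3 and LNK4 and inside the wild-type range for LNK1.

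The annotation places other genes over parts of the LNK genes, and the use of strand in the counting is not given in the sources used here. The exons of LNK1 overlap those of AT5G64160 on the opposite strand by 245 bp, and this neighbour had 5.90 ± 0.539 CPM in wild type and 5.67 ± 0.342 in the mutant (SD, n = 3 each; log2 fold change -0.05, adjusted p = 0.930, edgeR). LNK2 exons overlap 93 bp of RPB5E and 44 bp of AT3G08405, both on the opposite strand; the former was too low to be tested and the latter was not called (-0.19, adjusted p = 0.427). The overlaps of the members that fell are shorter. LNK3 shares 5 bp with AT3G12340 on the opposite strand, whose mean was 2.28 CPM in wild type and 3.09 in the mutant, and LNK4 shares 13 bp with AT5G06990 on the same strand, at means of 0.139 and 0.111 CPM.

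To compare the members with each other, CPM were divided by the annotated exon length. In wild type the order was LNK2 at 89.1 ± 6.06 CPM per kilobase, LNK3 at 48.0 ± 3.30, LNK4 at 35.5 ± 2.53 and LNK1 at 23.4 ± 3.22 (SD, n = 3 each), and no 2 neighbours in this order overlapped between libraries. LNK2 exceeded 97.9% and LNK1 91.1% of 16428 tested nuclear genes on this scale. In fbn6-1 the levels were 77.6 ± 2.62 for LNK2, 33.8 ± 3.12 for LNK3, 24.4 ± 1.17 for LNK1 and 24.0 ± 1.53 for LNK4. In the mutant LNK1 and LNK4 could no longer be separated: LNK1 lay between 23.2 and 25.5 CPM per kilobase and LNK4 between 22.6 and 25.6.

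The summed LNK level was 198, 185 and 205 CPM per kilobase in wild type, against 166, 153 and 161 in the mutant. All mutant sums lay below the wild-type sums, at 0.815 of the wild-type mean (two-sided exact permutation p = 0.1, the smallest that 3 against 3 libraries allow). LNK1 made up 11.9% ± 1.03 of the sum in wild type and 15.3% ± 0.0972 in the mutant (SD, n = 3 each), and LNK4 18.1% ± 1.08 and 15.0% ± 0.800. The share of LNK2 was 45.4% ± 1.09 and 48.6% ± 0.706, and that of LNK3 24.5% ± 2.20 and 21.2% ± 1.44. The groups did not overlap for LNK1, LNK2 and LNK4 (exact permutation p = 0.1 each, 0.133 adjusted over the 4 shares) and overlapped for LNK3 (exact p = 0.2). The shares of a library are tied, since a fall of some raises the others, so they are not separate results. LNK2 gained share although its mean level was 89.1 CPM per kilobase in wild type and 77.6 in the mutant.

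**Figure D2:**
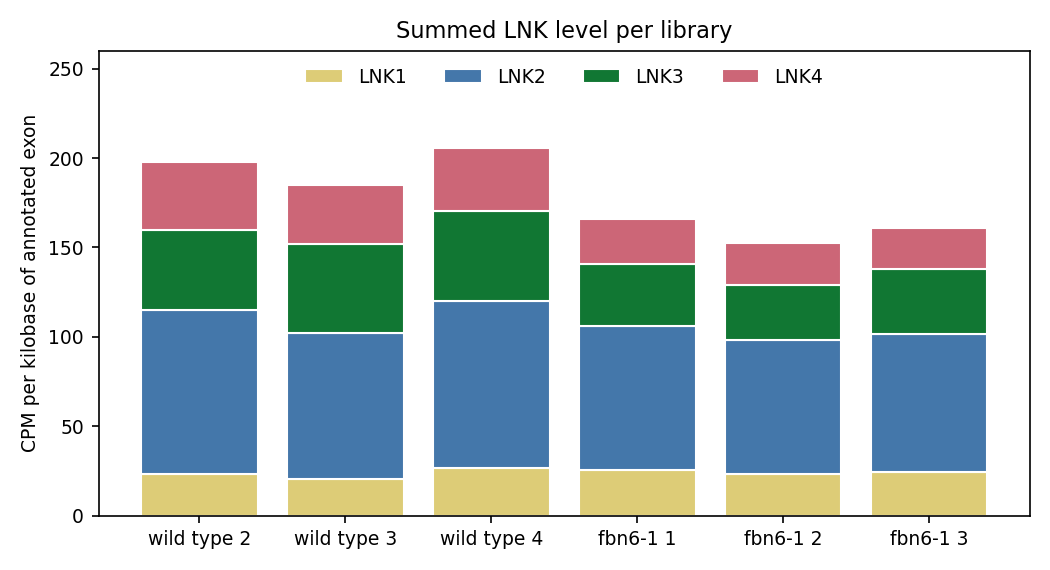
CPM per kilobase of annotated exon of the 4 LNK genes, stacked for each library. The sums lie between 185 and 205 in wild type and between 153 and 166 in fbn6-1, with shorter LNK2, LNK3 and LNK4 blocks in the mutant and an LNK1 block of similar height.

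Ratios between members within a library do not depend on how libraries are scaled. The log2 ratio of LNK1 to LNK4 was -0.18, -0.18 and 0.13 in wild type, against 0.52, 0.50 and 0.64 in the mutant. The mutant libraries thus all lay above the wild-type ones, and the difference of means was 0.63. The corresponding differences were 0.57 for LNK1 to LNK3, 0.37 for LNK2 to LNK4, 0.31 for LNK2 to LNK3 and 0.26 for LNK1 to LNK2, again without overlap. For each of these 5 pairs the two-sided exact permutation p was 0.1, the smallest possible here (0.12 adjusted over the 6 pairs), so none could pass a threshold of 0.05. The ratio of LNK3 to LNK4 was 0.27 ± 0.19 in wild type and 0.33 ± 0.17 in the mutant on the log2 scale (SD, n = 3 each), a difference of 0.06 (exact permutation p = 0.8).

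The MYB-type factors listed beside the LNK genes, REVEILLE proteins, CCA1, LHY and MYB3, gave 1 lower and 0 higher call among 11 tested genes; 3 lower and 0 higher genes had an unadjusted p under 0.05, and DESeq2 and limma-voom likewise called 1 lower and 0 higher. Their median log2 fold change was -0.12, against -0.0037 over all tested genes. A small unadjusted p was common: at least 2913 of 16584 tested genes, in either direction, had one below 0.0487 (edgeR). The counts at an unadjusted p under 0.05, here and in the lists below, stand beside that share. RVE8, the main partner of the LNK proteins, stood at 27.5, 23.0 and 28.5 CPM in wild type and 20.6, 21.4 and 19.4 CPM in the mutant, with no overlap. At -0.37 on the log2 scale with an SE of 0.12 it was not called (edgeR adjusted p = 0.111). Nor was it called by DESeq2 (adjusted p = 0.288), by limma-voom (adjusted p = 0.119) or with library-size scaling (-0.23, adjusted p = 0.351). It was called without wild-type replicate 3 (-0.45, adjusted p = 0.0237), where calls over all genes rose from 633 to 1238. The related activators RVE4 (-0.10, adjusted p = 0.720) and RVE6 (0.05, adjusted p = 0.947) were not called, nor were RVE3 (-0.17) and RVE5 (0.31), and the exons of RVE5 overlap a more abundant gene on the opposite strand by 681 bp.

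CCA1 and LHY, the morning repressors of the clock's core loop, had 123 ± 7.41 and 96.7 ± 6.21 CPM in wild type and 107 ± 1.81 and 78.5 ± 3.08 CPM in the mutant (SD, n = 3 each). Neither was called (-0.20, adjusted p = 0.294, and -0.30, adjusted p = 0.107, edgeR), although in both the groups did not overlap. The member of this list that fell was RVE1, a clock-regulated factor known for its part in auxin-dependent growth. It stood at 32.3, 27.0 and 41.0 CPM in wild type and at 17.9, 16.6 and 16.1 CPM in the mutant, so that every mutant library was below every wild-type library. The log2 fold change was -0.99 (SE 0.15, adjusted p = 0.00172, edgeR), and RVE1 was called lower in all 14 alternatives run. RVE1 exons overlap AT5G17305 on the opposite strand by 225 bp, and that gene, at 4.67 CPM in wild type and 2.30 in the mutant, was not called (-1.06, adjusted p = 0.0706). RVE2 (-0.08), RVE7 (-0.12) and MYB3 (0.10), a repressor of phenylpropanoid genes that binds LNK1 and LNK2, were not called.

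Of 13 clock and clock-regulated genes listed as downstream of, or coupled to, the RVE and LNK proteins, 7 had enough counts to be tested and 0 were called by edgeR, by DESeq2 or by limma-voom; at an unadjusted p under 0.05, 1 was higher and 1 lower. TOC1, a direct target of the RVE8 and LNK complex, had 3.35, 5.75 and 4.75 CPM in wild type, against 4.58, 5.43 and 6.02 in the mutant. The groups overlapped (log2 fold change 0.20, SE 0.23, adjusted p = 0.708, edgeR), and the 95% interval ran from -0.28 to 0.69. PRR5, the other direct target, had only 4, 9 and 2 counts in wild type, against 11, 4 and 15 in the mutant, too few for a test. The pseudo-response regulator genes PRR9 (-0.19, adjusted p = 0.644) and PRR7 (-0.08, adjusted p = 0.861) were not called, nor was GI (0.25, adjusted p = 0.438), a gene of light input and flowering time.

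The evening complex gene ELF3 stood at 3.03 ± 0.755 CPM in wild type and 4.62 ± 1.39 in the mutant (SD, n = 3 each; log2 fold change 0.64, adjusted p = 0.242, edgeR). LUX, which encodes the DNA-binding subunit of that complex, stood at 3.99 ± 1.58 and 2.58 ± 0.541 CPM (-0.65, adjusted p = 0.264); its exons overlap AT3G46650 on the opposite strand by 698 bp. ELF4, the remaining subunit, had 0 counts in all 6 libraries, where 3 counts would correspond to between 0.225 and 0.359 CPM. The RNA-binding protein gene GRP7 had a mean of 1.96 CPM in wild type and 2.70 in the mutant and was not called (0.46, adjusted p = 0.489). PRR3, COR27 and COR28 had at most 1 count in a library and BOA at most 4. A change in these low genes was not detectable at this depth.

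**Figure D3:**
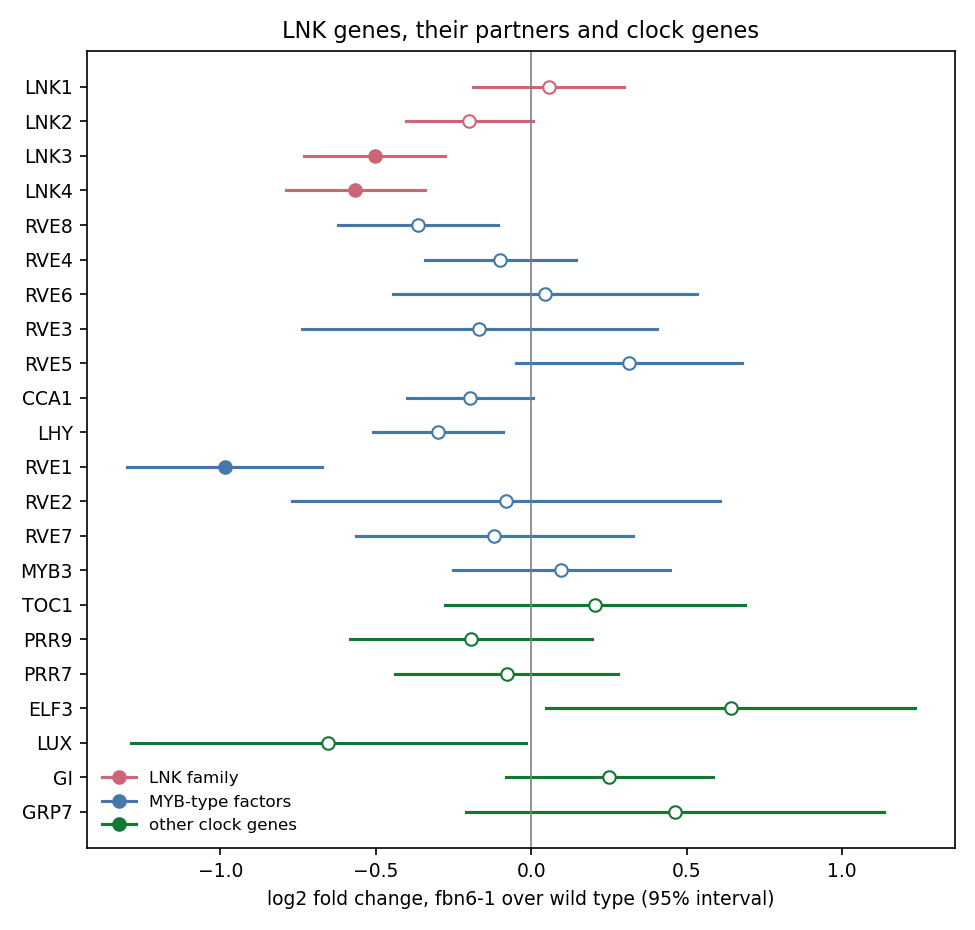
Log2 fold change of fbn6-1 over wild type with its 95% interval for the LNK genes, the MYB-type factors and the 7 tested clock genes; filled points have an adjusted p under 0.05 (edgeR). LNK3, LNK4 and RVE1 are filled, at -0.50, -0.57 and -0.99, and the intervals of low genes such as ELF3 and LUX are wide.

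Among 17 tested light-input genes, photoreceptors and their signalling factors, 1 was lower and 0 higher; at an unadjusted p under 0.05, 3 were lower and 2 higher. PIF4, a growth-promoting bHLH factor that phytochromes inactivate in light, had 39.8, 30.3 and 52.0 CPM in wild type, against 25.4, 26.0 and 26.1 in the mutant. Wild type varied far more than the mutant. The log2 fold change was -0.66 (SE 0.16, adjusted p = 0.0324, edgeR), but PIF4 was called in only 7 of 14 alternatives. The call was lost with library-size scaling (-0.54, adjusted p = 0.0903), when any library but wild-type replicate 3 was left out (adjusted p from 0.0794 to 0.135), and with the replicate number as a block, where the value was smallest. Of 7 genes of photoperiodic flowering, 4 had enough counts to be tested, of which 1 was lower and 0 higher, with 1 in each direction at an unadjusted p under 0.05; DESeq2 and limma-voom likewise called 1 lower and 0 higher in each of these lists. CDF2, a Dof repressor of CONSTANS, had 19.4, 18.1 and 23.0 CPM in wild type, against 11.3, 11.6 and 9.77 in the mutant. Its log2 fold change was -0.89 (SE 0.14, adjusted p = 0.00260, edgeR), and it was called in 13 of 14 alternatives, the exception being the replicate number as a block. Of 8 anthocyanin and phenylpropanoid genes, 4 could be tested, 0 were called by edgeR, DESeq2 or limma-voom and 1 had an unadjusted p under 0.05. Over all these lists, 3 of 43 tested genes were called, beside 3.82% of all tested genes; 7 were called without wild-type replicate 3 and 6 without a low-count filter.

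The tested genes with at least 10 CPM whose log2 CPM ran most closely with each member over the 6 libraries were found by Pearson correlation, as a description: points of 1 group share their genotype, and all genes of a library share its scaling. For LNK1 these were NAP1;2 (r = 0.990), OEP80 (0.986) and AT3G26935 (0.986), of which none was called. For LNK2 they were EXGT-A3 (0.998), SHY2 (0.993) and AT4G38840 (0.993), of which EXGT-A3 and AT4G38840 were called lower and SHY2 was not called. For LNK3 they were AT1G63010 (0.987), PEX11D (0.986) and AT2G35050 (0.986), and for LNK4 HEXO3 (0.999), AT5G37360 (0.998) and AT2G32880 (0.995). Of these neighbours of LNK3 and LNK4, AT2G35050 and AT2G32880 were called lower and the others were not called. Within the family, LNK4 correlated with LNK2 at r = 0.917 and with LNK3 at 0.854, and LNK3 with LNK2 at 0.784. LNK1 ran with none of them, at 0.262 with LNK2, -0.15 with LNK3 and -0.13 with LNK4. Among the 6251 genes ranked by likeness to LNK4, LNK2 came at rank 322 and LNK3 at rank 625, so many genes outside the family followed LNK4 more closely.

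**Figure D4:**
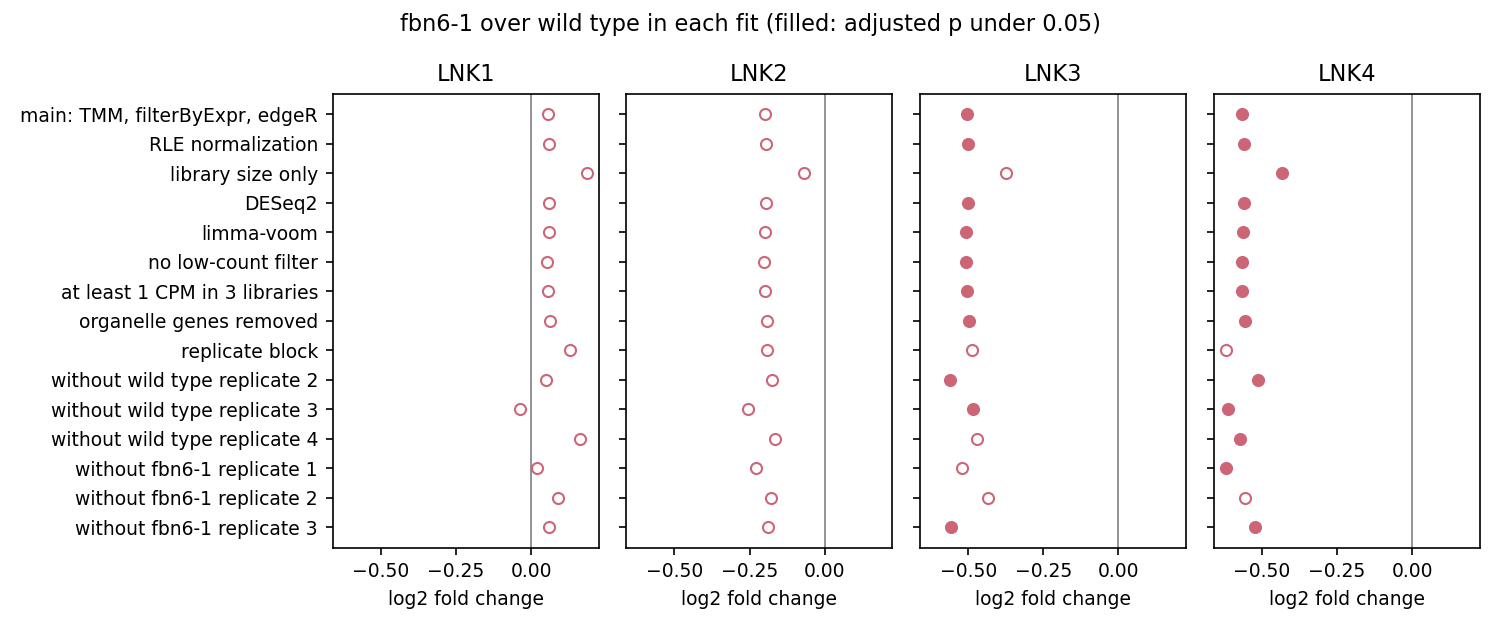
Log2 fold change of fbn6-1 over wild type for each LNK gene in the reported fit and 14 alternatives; filled points have an adjusted p under 0.05. LNK3 and LNK4 stay below 0 in every fit while some of their points are open, LNK2 stays below 0 and open, and LNK1 crosses 0 without wild-type replicate 3.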

How the data were processed

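For each library the authors deposited a table of unnormalized read counts by gene. Per the submitters' processing notes, the tools used include TopHat2 2.1.1, featureCounts, Trimmomatic and FastQC, and the build was TAIR10. Not given in the sources used here are the annotation release, the strand setting and the treatment of reads with several matches. Differences between genotypes were tested on the counts in edgeR 4.0.16, run in R 4.3.3 (two-sided quasi-likelihood test, TMM, filterByExpr with minimum count 10 and minimum total 15), which left 16584 of 36917 genes; p-values were adjusted over all of them by Benjamini and Hochberg, genes were called under 0.05, and the SE is the log2 fold change divided by the square root of its F statistic. P-values measure the spread between these libraries, which may be partly technical. Tested on simulated data, the fit returned fold changes close to those set. It missed most changes of about the size of those of LNK3 and LNK4, so a gene that was not called may have changed. The false share of its calls on these simulated data was above the threshold of 0.05. What this means for the LNK3 and LNK4 calls was not tested. Recovery at the level and SE of the LNK genes was not tested. Their SE was 0.095 to 0.11, against a median of 0.20 over all tested genes. Alternatives used DESeq2 1.42.0 and limma-voom 3.58.1, other scalings and filters, removal of organelle genes, a replicate block, and each library left out. Correlations and ratios used log2 CPM with a prior count of 2. Gene models, lengths, overlaps and sequence came from RefSeq TAIR10.1 and were not matched to the annotation behind the counts. All tested genes of the MYB-type and clock lists were named, and up to 3 called genes per direction of the other lists. The members and lists were chosen with earlier results of these data known.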

Additional observations from a re-analysis of the deposited data

How the results depend on the processing

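LNK3 stayed between -0.56 and -0.37 on the log2 scale and LNK4 between -0.62 and -0.43 in the 14 alternatives, below 0 in each. LNK3 lost its call with library-size scaling (-0.37), which moves the median of all tested genes from -0.0037 to 0.13, and with 1 library left out it ranged from -0.56 to -0.43 (adjusted p from 0.00904 to 0.106). LNK4 ranged from -0.62 to -0.51 with 1 library left out (adjusted p from 0.00104 to 0.0503). LNK1 turned to -0.037 without wild-type replicate 3 and ranged up to 0.16 with 1 library left out. LNK2 was called in none. The difference in the LNK3 to LNK4 ratio turned to -0.050 without wild-type replicate 2 and to -0.038 without mutant replicate 3.

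The number of called genes was 633, 1232 without a low-count filter, and between 272 and 1238 with 1 library left out (348, 1238 and 335 without wild-type replicates 2, 3 and 4, and 304, 272 and 291 without mutant replicates 1, 2 and 3). With library-size scaling 72.3% of calls were higher, against 38.7%. Called genes of the context lists numbered 3, 6 without a low-count filter and 2 to 7 with 1 library left out. The cause of these shifts was not tested.

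The groups share the replicate numbers 2 and 3 only, and the labels do not say that a number marks a shared plant or batch; deviations from the group means correlated at -0.03 for number 2 and 0.10 for number 3. With the replicate block, which leaves 1 mutant and 1 wild-type library unpaired, 191 genes and 1 context gene, RVE1, were called, PIF4 stood at -0.42 (adjusted p = 0.375), CDF2 at -0.81 (adjusted p = 0.0613), LNK3 stood at -0.49 (adjusted p = 0.186) and LNK4 at -0.62 (adjusted p = 0.0775), LNK1 at 0.13 and LNK2 at -0.19.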
